A study of Mus musculus with 2 samples.

Results

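The genes described here encode the nuclear subunits of respiratory complexes II to V and cytochrome c. They were chosen by name, as the probes for coding mRNAs whose array name is Sdha to Sdhd, Cyc1 or Cycs or begins with Uqcr, Cox4 to Cox8 or Atp5, leaving out Cox4nb, an unrelated gene. This gave 48 of the 18754 coding accessions on the array, namely 4 of complex II, 8 of complex III, cytochrome c, 18 of complex IV and 17 of complex V. The choice used no measured value, although earlier results of these data were known when it was made. All 48 accessions were found in the RefSeq table, and 4 have newer symbols: Uqcr is now Uqcr11, Atp5f1 is Atp5pb, and Atp5s and Atp5sl are Dmac2l and Dmac2, which are not subunits of the enzyme despite their older names.

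The study asked how the distribution of mRNAs between polysomes and lighter fractions changes when protein synthesis is inhibited by stress of the endoplasmic reticulum. The cells were NIH3T3, an established line of mouse embryonic fibroblasts, grown as 4 plates in medium with 10% serum. The control group received no thapsigargin, and the other group received 10 µM thapsigargin for 3 h. Per the study's methods, cells were also given cycloheximide shortly before lysis to hold the polysomes in place. Thapsigargin blocks the calcium pump of the endoplasmic reticulum and so triggers the unfolded protein response. In both groups the lysate was run through a sucrose gradient of 10 to 40%, and RNA was pooled into a polysome fraction (P, labelled with Cy3) and a fraction of free mRNA and monosomes (FM, labelled with Cy5). Each group is 1 two-colour array that carries RNA pooled from 3 preparations. There is therefore no replicate, no test and no p-value in what follows, and the differences stand for these pools of a single cell line. Dyes were not swapped, so dye and fraction cannot be told apart in a single ratio.

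Values of log2 P/FM compare the polysome signal of an mRNA with its free plus monosome signal on a log2 scale and are above 0 where an mRNA gave more signal in polysomes. Change means thapsigargin minus control. A averages the log2 signals of the P and FM channels and measures brightness, and mRNAs with A above 4.5 on both arrays were taken as detected, which left 10033 coding mRNAs. The number of arrays limits the precision. The only spread that could be measured was that within an array: repeated spots of a probe had a median SD of 0.09 in the change (88 probes), and different probes of an accession one of 0.32 (3412 accessions), or 0.20 for the 11 members with more than 1 probe. These SDs hold array error and none of the variation between cultures. Marker genes were called by another rule, a flag for well above background in at least 1 channel of an array. By this rule all 10 fibroblast marker genes were detected on both arrays. None of 4 striated muscle and 2 endothelial markers was. Of the other lists Krt8 (1 of 4 epithelial markers, in FM of the control array only) and Cd3e and Cd68 (2 of 3 leukocyte markers) were seen.

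Oxidative phosphorylation couples electron flow to ATP synthesis across the inner mitochondrial membrane. Complex II (succinate dehydrogenase) is also an enzyme of the citric acid cycle, complex III passes electrons to cytochrome c, complex IV (cytochrome c oxidase) passes them to oxygen, and complex V (ATP synthase) makes ATP with the proton gradient. Complexes III, IV and V also hold subunits encoded by mitochondrial DNA, which were not part of this set, whereas complex II is encoded wholly in the nucleus. The mRNAs described here are translated on cytosolic ribosomes, so they pass through the fractions that the sucrose gradient separates.

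Many of these genes share short elements at their start sites, which are shown because they are a feature that the choice of genes did not use. The RefSeq table of promoters (GRCm38.p6, 250 bases before to 50 after each start) held 37 of the 48. The members without an entry were Cox6a2, Cox6c, Sdhc, Cyc1, Atp5a1, Cox4i2, Uqcrb, Uqcrq, Uqcrc2, Cox4i1 and Cox8c. An Ets-type motif (CCGGAAG, both strands), of the kind bound by the activator GABP, was found in 12 of the 37 (32.4%), against 9.93% of 27025 genes and 8.86% of 32851 promoters. The core of the palindrome bound by nuclear respiratory factor 1 (GCATGCG, both strands, which overlap each other in a full palindrome) was found in 9 (24.3%), against 4.01% of genes and 3.58% of promoters. The shares over genes and promoters cover every gene with a promoter entry, detected here or not. The share among detected coding mRNAs was not computed. In no member did matches of the Ets motif and of this core overlap. The windows of 30 bases below, 5′ to 3′ on the strand of the gene with the motif in capitals, come from members whose change with thapsigargin differed widely, and all lie upstream of the annotated start.
Sdhd (Ets, chr9:50603877-50603906, minus strand): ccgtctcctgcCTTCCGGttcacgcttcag
Uqcr (Ets, chr10:80406869-80406898, minus strand): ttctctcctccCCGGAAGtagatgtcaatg
Cox6b1 (Ets, chr7:30626124-30626153, minus strand): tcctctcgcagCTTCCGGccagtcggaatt
Atp5h (Ets, chr11:115419939-115419968, minus strand): caaggagagaaCTTCCGGcaactctcttcc
Cycs (nuclear respiratory factor 1, chr6:50566611-50566640, minus strand): catgctagctcGCATGCGcgcgcacaaacc
Cox6a1 (nuclear respiratory factor 1, chr5:115349100-115349129, minus strand): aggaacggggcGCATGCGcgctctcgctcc
Atp5g2 (nuclear respiratory factor 1, chr15:102671069-102671098, minus strand): gctccggccgcGCATGCGcagagccttccc

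The letters are a description of the promoters and not a measure of binding. The median change was -1.97 in the 12 detected members with the Ets motif and -2.31 in the 23 detected members that had a promoter entry without it. With the second motif it was -2.18 (9 members), against -1.94 without (26 members). Cox6b1 and Atp5h, which share the Ets motif, differed by more in their change (-1.16 and -3.16) than these medians did.

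Of the 48 members 44 were detected, and the medians below cover those. The other 4 were Cox4i2, Cox7b2, Cox8b and Cox8c, isoforms of complex IV known from lung, testis or muscle. They were not well above background in either channel of either array, and no ratio is given for them. Among the detected, 42 had every probe well above background in all channels, the exceptions being Atp5s and Atp5sl.

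In control cells most of these mRNAs gave more signal in polysomes. The control log2 P/FM had a median of 0.94 and ran from -2.33 (Cox7a2l) to 2.45 (Atp5g3), against a median of 0.34 over all detected coding mRNAs. It was 0 or more in 35 of 44 members, a call made for 63.5% of all coding mRNAs. With thapsigargin the median was -1.22 (from -3.75 to 1.19), against -0.29 over all, and 4 members (Sdha, Sdhc, Sdhd and Cox7a1) were at 0 or above, against 37.4% of all. The median of the members was thus above that of all detected coding mRNAs in the control and below it with the drug. Among mRNAs of like brightness the second part did not hold throughout. With thapsigargin the members with mean A above 13 had a median of -1.67, as did all coding mRNAs there. From 11 to 13 the medians were -1.09 (members) and -0.77 (all), and from 9 to 11 they were -0.28 and -0.44. They were 0.75 (Sdha alone) and -0.20 from 7 to 9, and -0.84 and -0.19 from 4.5 to 7.

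The median change was -2.02 (from -3.78 to 1.70), against -0.71 over all coding mRNAs, a difference of -1.30. Of 44 members 43 were lower (background 70.7%), 39 were lower by 1 or more (background 40.8%) and 23 by 2 or more (background 13.7%). Cox7a1 was the 1 member higher by 1 or more (background 9.90%). Sdhd alone reached 0.8 in both conditions, the size that the study uses for resistant mRNAs (background 3.00%). The sign of the change depends on the zero point: 10 probes for spike-in control RNA themselves had a median change of -2.44 (from -2.67 to -2.16), and when the arrays were set equal on the median spike-in ratio of each array, which adds 2.55 to every change, the median change of the members was 0.53 and that of all coding mRNAs 1.84. Whether spike-in RNA was added per fraction or per amount of RNA is not given in the sources used here, and whether it marks a true zero was not tested. Per the study's methods, P and FM RNA were labelled in the proportions found in each condition. P held more RNA than FM in the control, and FM more than P under stress. For that reason the values here are given without normalization. The part of these proportions in the change of the spike-in probes was not tested. The difference of -1.30 is the same under the shift of 2.55, and was -0.70 with the dye-normalized signals and -0.30 after loess within each array. It was -1.74 with no background subtraction and -2.18 with normexp (where 11.1% of all coding mRNAs were lower by 1 or more). These last values cover 48 members, since those not detected then passed the filter on A. The median change of all coding mRNAs was then -0.17 with no background subtraction and 0.33 with normexp.

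**Figure D1:**
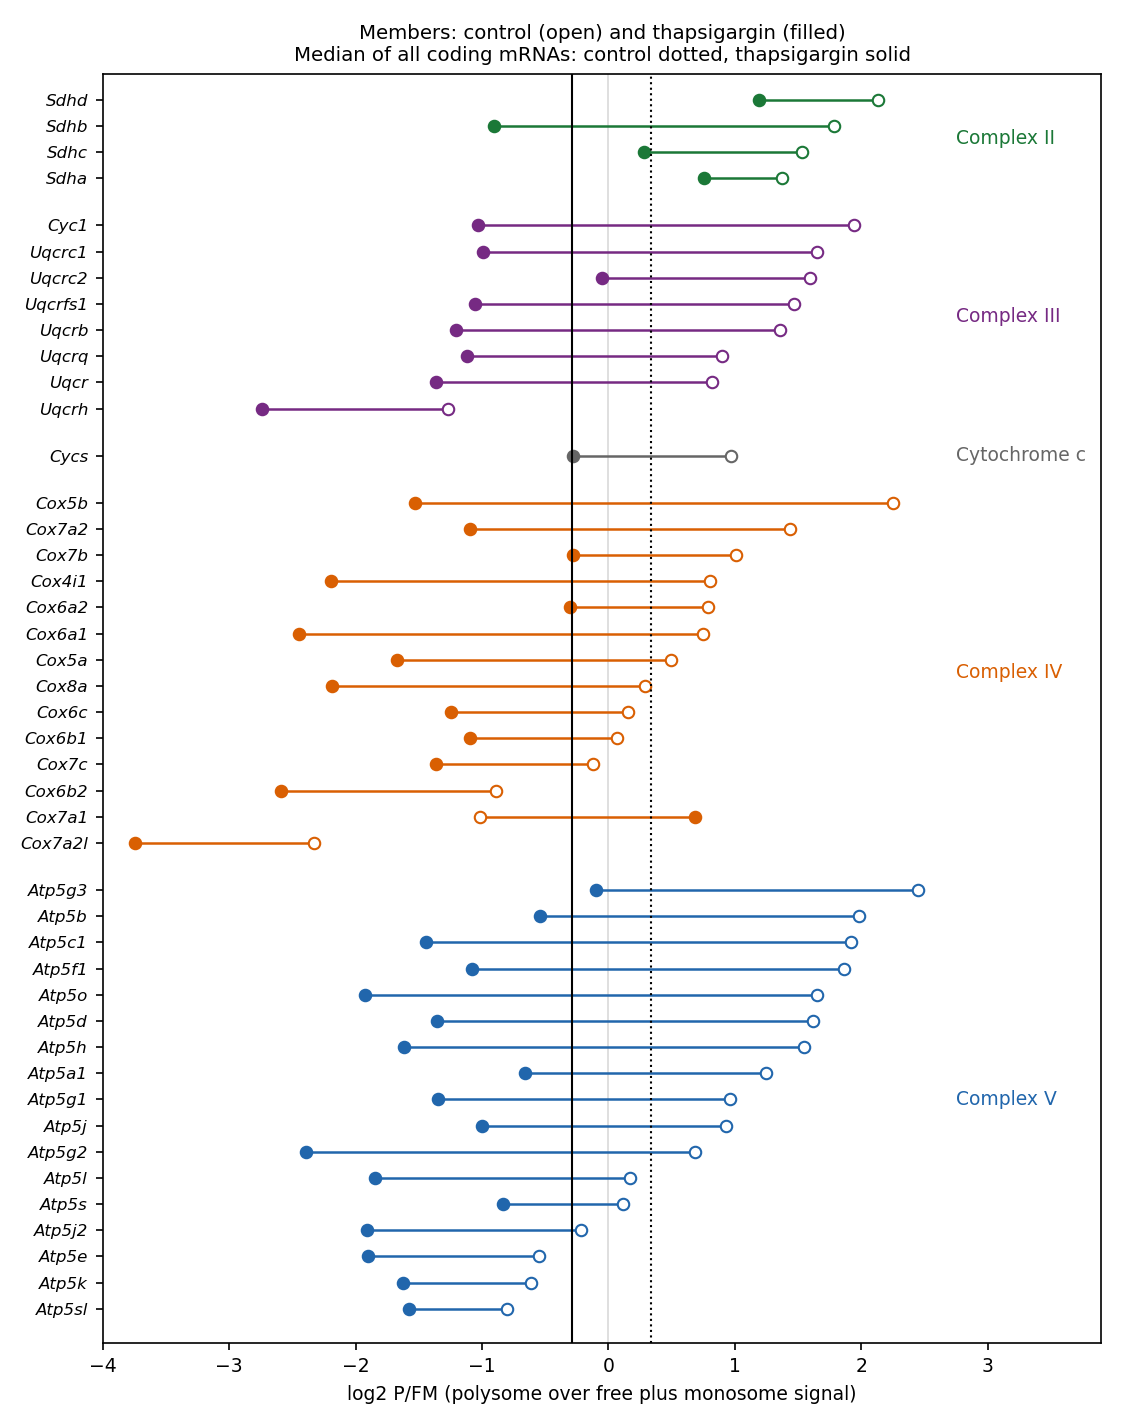
Log2 P/FM (x axis, log2 of the polysome over the free plus monosome signal) of the 44 detected members (y axis, grouped by complex and ordered by the control value), with open points for the control array and filled points for thapsigargin. Every member but Cox7a1 has its filled point to the left of the open one on this scale without normalization, while with arrays set equal on the spike-in probes the median change is 0.53. The vertical lines mark the medians of all coding mRNAs at 0.34 (control, dotted) and -0.29 (thapsigargin, solid).

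Succinate dehydrogenase was high in polysomes in the control and was the complex with the smallest median change. Its median log2 P/FM was 1.66 in the control and 0.52 with thapsigargin, with a median change of -1.10 over 4 genes. Sdhd, a membrane anchor of the complex, had log2 P/FM of 2.13 in the control and 1.19 with thapsigargin, a change of -0.94 that turned to 0.40 with the dye-normalized signals and 0.41 after loess within each array. Only 2.23% of all coding mRNAs were higher than Sdhd in the control and 4.46% with thapsigargin. Sdhc, the other anchor subunit, stood at 1.53 and 0.28, a change of -1.26. Sdha, the flavoprotein that oxidises succinate, stood at 1.38 and 0.75, the smallest change of the complex at -0.62, which turned to 0.56 with normexp and 0.0083 with arrays centred on their medians. Its value is the mean of a pair of probes that disagree. The probe at chr13:74460146-74460205 (mm9) changed by -0.11 and the one at chr13:74465756-74465815 by -1.13.

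The iron-sulfur subunit Sdhb, which carries electrons from the flavoprotein to ubiquinone, did not follow the other members of complex II. Its log2 P/FM was 1.78 in the control and -0.91 with thapsigargin, a change of -2.69 from a control value between those of Sdhc and Sdhd. The signals of Sdhb were 2799 in P and 814 in FM in the control, and 668 in P and 1252 in FM with thapsigargin. Those of Sdhd were 6199 and 1415 in the control, and 3551 and 1554 with thapsigargin. The FM signal of Sdhd was thus nearly level while its P signal was lower, and Sdhb had both a lower P and a higher FM signal. The changes of Sdha and Sdhb differed by 2.07, where the pair of probes of Sdha had an SD of 0.72.

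Complex III had the narrowest range of changes among the larger complexes. All 8 members were lower by 1 or more (background 40.8%), from -1.47 to -2.98. Their medians were 1.41 in the control, -1.09 with thapsigargin and -2.35 for the change. Cyc1, the cytochrome that hands electrons to cytochrome c, had the highest control value (1.95) and the largest difference (-2.98), ending at -1.03. Uqcrfs1, the Rieske iron-sulfur protein, stood at 1.47 and -1.06, a change of -2.53. The core proteins Uqcrc1 and Uqcrc2 had nearly equal control values of 1.65 and 1.60. They then parted, since Uqcrc1 was at -0.99 (change -2.64) and Uqcrc2 at -0.05 (change -1.65) with thapsigargin. Uqcrb, which lies at the ubiquinone site, stood at 1.36 and -1.21, a change of -2.57.

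The remaining small subunits of complex III were lower in polysomes already in the control. Uqcrq stood at 0.90 and -1.12, and Uqcr at 0.82 and -1.36. Uqcrh, the acidic hinge protein that contacts cytochrome c1, was the exception of the complex, with a control log2 P/FM of -1.27 and a value of -2.74 with thapsigargin. Its pair of probes gave -1.28 and -1.26 in the control, so the low ratio was not that of 1 probe. Uqcrh had the smallest change of the complex (-1.47, or 0.34 after loess within each array), and its FM signal was nearly the same on both arrays (31274 in the control and 32901 with thapsigargin) while its P signal went from 12975 to 4936. Grouped by role, Cyc1, Uqcrc1, Uqcrc2 and Uqcrfs1 had a median change of -2.58 and the 4 accessory subunits one of -2.10.

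Cytochrome c, the soluble carrier between complexes III and IV, had log2 P/FM of 0.97 in the control and -0.28 with thapsigargin, a change of -1.25. Its 3 probes did not give the same change. The probe at chr6:50515255-50515314 (mm9) changed by -2.01, and a pair that overlaps, at chr6:50514542-50514601 and chr6:50514522-50514581, changed by -0.84 and -0.90. The first of these 3 also had a higher control ratio (1.99, against 0.48 and 0.44). Whether these probes read different transcripts of Cycs was not tested.

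Cytochrome oxidase held both the lowest and the highest change of the 44 members. Its 14 detected members had medians of 0.39 in the control, -1.44 with thapsigargin and -1.56 for the change, from -3.78 to 1.70. Among the 11 that are not isoforms restricted to particular tissues the median change was -2.17, a choice made after the values were seen. Cox5b, a regulatory subunit that binds zinc, stood at 2.25 in the control and -1.53 with thapsigargin. Its change of -3.78 was the largest of the 44, and 0.150% of all coding mRNAs had a lower one. The P signal of Cox5b went from 27146 to 9304 and the FM signal from 5703 to 26814, so the order of the fractions turned over. Cox4i1 (0.80 and -2.19) and Cox6a1 (0.74 and -2.44) followed, with changes of -2.99 and -3.19. Cox5a stood at 0.50 and -1.67, a change of -2.17.

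A second set of complex IV subunits changed by much less. Cox6b1 stood at 0.07 and -1.09, Cox6c at 0.15 and -1.24, Cox7c at -0.12 and -1.36, and Cox7b at 1.01 and -0.28, with changes between -1.16 and -1.40. Cox7c and Cox6b1 lay near 0 before treatment. The sign of these 4 changes turned with the dye-normalized signals (from 0.0064 to 0.24), after loess within each array (from 0.034 to 0.44) and with spike-in scaling. Cox7a2l, a protein that joins complexes III and IV into supercomplexes, had the lowest log2 P/FM of all members on both arrays, at -2.33 and -3.75. Its FM signal was 8495 in the control and 8771 with thapsigargin, while the P signal went from 1692 to 654. Only 1.36% of all coding mRNAs were lower than Cox7a2l in the control.

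The isoform families Cox4i, Cox8 and Cox7b of complex IV separated by detection, and Cox6a, Cox6b and Cox7a did not. For Cox4i and Cox8, the widely expressed forms Cox4i1 and Cox8a (0.29 and -2.19, change -2.47) were measured, while Cox4i2, Cox8b and Cox8c were at background. Cox7b was measured and its testis form Cox7b2 was not. The heart and muscle form Cox6a2 was detected at low brightness (A of 5.90 and 6.40), with log2 P/FM of 0.78 and -0.31, as was the testis form Cox6b2 (A of 5.67 and 5.19), with -0.89 and -2.59. The muscle form Cox7a1 was the only member with a higher ratio after thapsigargin on this scale without normalization, at -1.01 in the control and 0.69 with the drug. Its change of 1.70 was 0.95 with the normexp correction and 0.82 with no background subtraction. Its P signal was 22.5 and then 75.7 and its FM signal 45.4 and then 47.1, from 1 probe close to the limit of detection (A of 5.0 on the control array), and 4 of 4 striated muscle markers were not detected on either array. Its widely expressed paralog Cox7a2 had log2 P/FM of 1.44 and -1.10, and its pair of overlapping probes changed by -2.52 and -2.55.

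ATP synthase had medians of 0.96 in the control, -1.44 with thapsigargin and -2.31 for the change over 17 members, from -3.58 to -0.78. All 17 were lower (background 70.7%), 15 of them by 1 or more (background 40.8%) and 10 by 2 or more (background 13.7%). In the catalytic head, the alpha and beta subunits Atp5a1 and Atp5b stood at 1.25 and 1.98 in the control and at -0.66 and -0.54 with thapsigargin. Atp5b changed by -2.52, and its 3 probes by -2.51, -2.89 and -2.16. The gamma subunit Atp5c1, the rotating shaft, stood at 1.92 and -1.44, a change of -3.36. The delta subunit Atp5d (1.62 and -1.36) changed by -2.98. The small epsilon subunit Atp5e was the member of the head that began below 0, at -0.55, and it changed by -1.35, or by 0.24 with the dye-normalized signals and 0.33 after loess within each array.

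The peripheral stalk held the largest change of the enzyme. Atp5o, the subunit that joins the stalk to the head and is known for oligomycin sensitivity, stood at 1.65 and -1.92, and its change of -3.58 was the second of all members. Atp5h (1.55 and -1.62) changed by -3.16, with -3.11 and -3.22 from a pair of overlapping probes. Atp5f1, the b subunit of the stalk, stood at 1.87 and -1.08, a change of -2.95. Its P signal was nearly level (6818 and then 5967) while its FM signal went from 1868 to 12637. Uqcrc2, Atp5a1 and Atp5e also had nearly level P signals (log2 changes of -0.07, -0.14 and -0.10) and higher FM signals (1.58, 1.77 and 1.25). The medians over all coding mRNAs were 0.02 in P and 0.72 in FM. Atp5f1 was the 1 member whose A was higher by 1 or more with thapsigargin (1.28), a call made for 11.7% of all coding mRNAs. Atp5j, coupling factor 6 of the stalk, stood at 0.93 and -1.0, a change of -1.93. Among the subunits of the head, this was smaller than the changes of Atp5b, Atp5c1 and Atp5d. It was close to that of Atp5a1 (-1.91) and larger than that of Atp5e (-1.35).

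The c ring is built from identical mature proteins encoded by Atp5g1, Atp5g2 and Atp5g3, which differ in their import signals. Their mRNAs did not lie at the same ratio. Atp5g3 had the highest control log2 P/FM of all members (2.45) and was at -0.10 with thapsigargin. Atp5g1 stood at 0.96 and -1.35, and Atp5g2 at 0.69 and -2.40. Their changes were -2.55, -2.31 and -3.08, so the order of their ratios was the same on both arrays and the gap between Atp5g3 and Atp5g2 was wider with the drug. Of the small membrane subunits, Atp5k (-0.61 and -1.63), Atp5j2 (-0.22 and -1.91) and Atp5l (0.17 and -1.84) started low. Atp5k had the smallest change among the true subunits of complex V, at -1.01, which turned to 0.33 with the dye-normalized signals and 0.56 after loess within each array.

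Atp5s and Atp5sl, which carry the name without being subunits of the enzyme, had the smallest changes of those counted under complex V, -0.95 and -0.78. Both were dim, and the pair of probes of Atp5sl disagreed, with -1.87 at chr7:26409949-26410008 and 0.32 at chr7:26405022-26405081 (mm9), the latter not well above background in P. Without them the median change of complex V was -2.52 over 15 members.

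**Figure D2:**
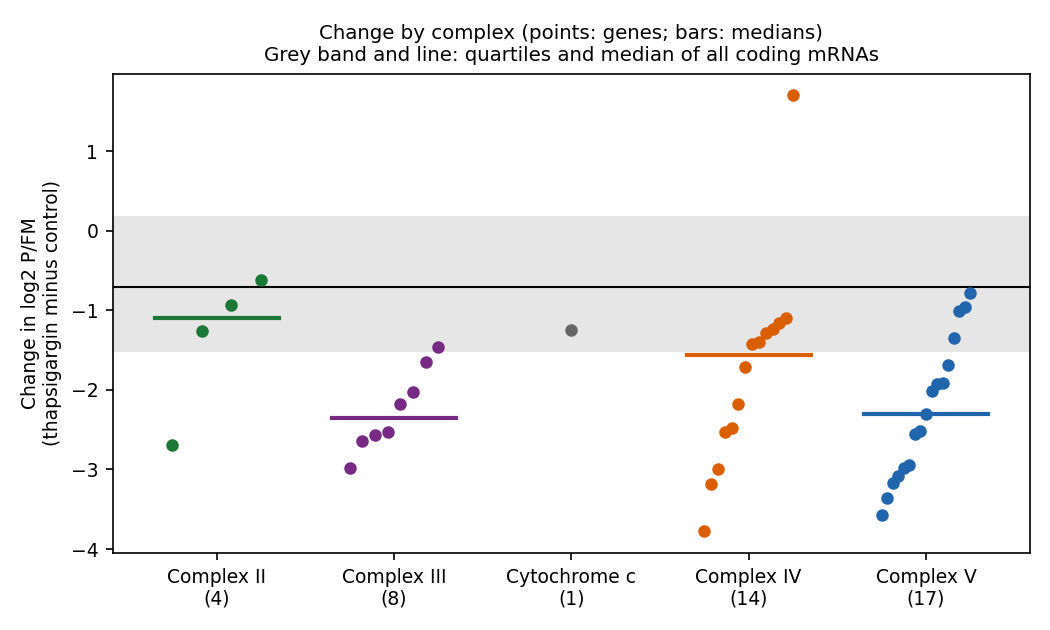
Change in log2 P/FM (y axis, thapsigargin minus control, log2 scale without normalization) of each detected member, by complex with the number of genes in brackets. Bars are medians, the black line is the median of all coding mRNAs (-0.71) and the grey band runs between its quartiles (-1.52 and 0.17). Complex III (-2.35) and complex V (-2.31) lie lowest, complex II (-1.10) highest, and Cox7a1 of complex IV alone lies above 0, whereas with arrays set equal on the spike-in probes the medians of all 4 complexes are above 0.

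Between complexes, 6 pairs of medians were compared as values. Complex II was higher in its median change than complex III by 1.26, than complex V by 1.21 and than complex IV by 0.47. The difference of complex III from complex V was -0.05, smaller in size than the SD between probes, and complex IV lay above complex V by 0.74. The ranges overlap in every pair. Of the 4 genes of complex II, 3 were above every gene of complex III, and Sdhb was not. The order depends on the processing. Complex II had the highest and complexes III and V the lowest medians under the choices run, except that complex IV (-0.29) was above complex II (-0.32) after loess within each array, and with the dye-normalized signals complexes IV (-1.14) and V (-1.16) were below complex III (-0.95).

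The brightness of the spots moved with the change. The median A was 12.56 for the members, 7.65 for all coding mRNAs and 10.00 for complex II, and the median change of all coding mRNAs went from -0.24 at A of 4.5 to 7, through -0.67 (7 to 9), -1.26 (9 to 11) and -1.71 (11 to 13), to -1.99 above 13. Against mRNAs of the same brightness the members were closer to the rest. In the band from 11 to 13 the 18 members had a median change of -2.16, and in the band above 13 the 15 members had one of -2.55, with 12 members below the median of all in each. In the band from 9 to 11 the 5 members (-1.26) equalled it. Taken from the median of their band, the changes had medians of -0.60 in complex III, -0.59 in complex V, -0.34 in complex IV and 0.03 in complex II, so the gap between complex II and complexes III and V was 0.63 and 0.62 in place of 1.26 and 1.21. The part of brightness in these differences was not tested.

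**Figure D3:**
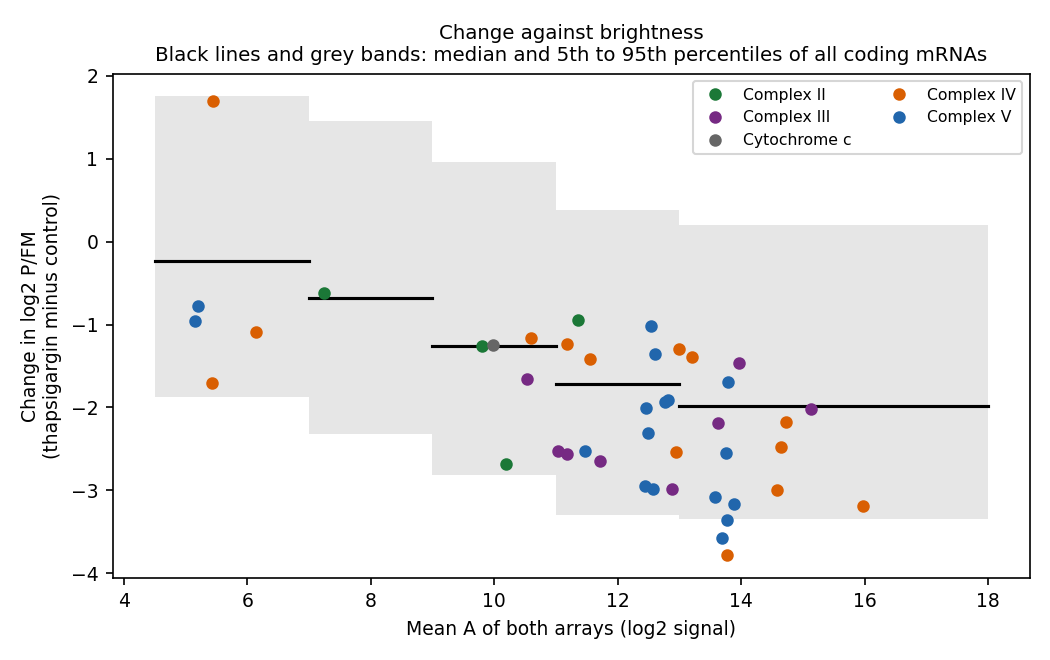
Change in log2 P/FM (y axis, thapsigargin minus control, without normalization) against the mean A of both arrays (x axis, log2 signal) for the detected members, coloured by complex. Black lines are the medians and grey bands the 5th to 95th percentiles of all coding mRNAs in 5 bands of A. The medians go from -0.24 in the dimmest band to -1.99 in the brightest, where 12 of 15 members lie below the line, and 3 members (Cox5b, Atp5o and Atp5c1) lie under the 5th percentile (-3.34). With arrays set equal on the spike-in probes every value here would be higher by 2.55.

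Both fractions differed between the arrays. The P signal was lower with thapsigargin in 41 of 44 members (background 49.3%), with a median log2 change of -0.88 against 0.02 over all coding mRNAs. The exceptions were Sdha, Cox7c and Cox7a1. The FM signal was higher in 42 members (background 86.6%), with a median of 1.22 against 0.72 over all, the exceptions being Sdhc and Atp5sl. With the dye-normalized signals the median FM change of the members was 0.27 and the median P change -0.71. The FM signals of complex III had a median log2 change of 1.53, those of complex V 1.30, those of complex IV 1.08 and those of complex II 0.38. In the P signals complex II (-1.23) lay below complexes III (-0.73), V (-1.04) and IV (-1.0). These medians cover 4 genes that differ, with P changes from -2.07 (Sdhb) to 0.54 (Sdha) and FM changes from -0.39 (Sdhc) to 1.16 (Sdha). Per the study's methods, P and FM RNA were labelled in the proportions found in each condition, at 300 ng in total. Equal volumes of the labelled products were then hybridized. These signals are thus relative to the RNA labelled, whose split between the channels differed between the arrays. A signal per culture cannot be told apart from one per cell. The spike-in probes changed by -1.51 in P and 0.96 in FM.

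**Figure D4:**
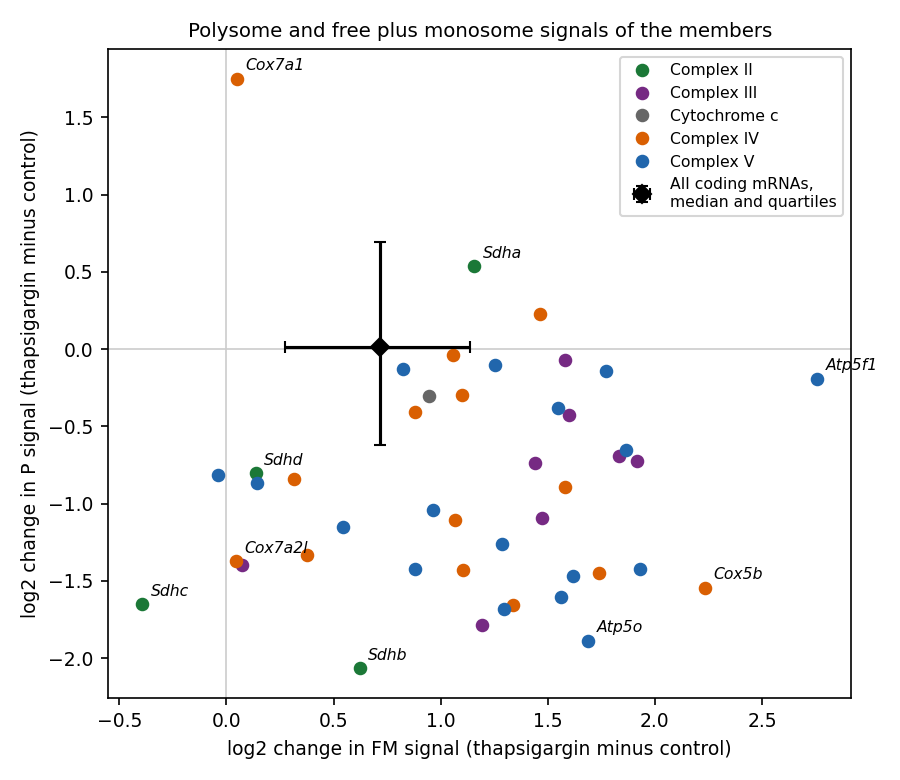
Log2 change in the P signal (y axis) against the log2 change in the FM signal (x axis), thapsigargin minus control without normalization, for the 44 detected members coloured by complex. The black diamond with bars is the median and quartiles of all coding mRNAs (0.72 in FM, 0.02 in P). Most members lie to the lower right of it, Atp5f1 lies farthest right (2.76), Cox7a1 highest (1.75) and Sdhc farthest left (-0.39). The spike-in probes would lie at 0.96 and -1.51.

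Mean signal over both channels changed little. The median change in A was 0.17 in the members, against 0.37 over all coding mRNAs, and it ran from -1.02 (Sdhc) to 1.28 (Atp5f1). In complex II the values were spread, from Sdhc at -1.02 and Sdhb at -0.72 to Sdha at 0.85. Spearman's rho between the control and thapsigargin log2 P/FM was 0.49 over the 44 members and 0.15 over all coding mRNAs, as descriptions over genes that share both arrays.

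The other genes of the pathway, listed by name, were set beside the members. For complex I, the NADH dehydrogenase, all 36 genes on the array taken as subunits by their Nduf names were detected. Whether each is a subunit of complex I was not checked. Their medians were 1.61 in the control, -1.36 with thapsigargin and -2.82 for the change, and 34 were lower by 1 or more (background 40.8%). Ndufb9 (-4.64) and Ndufb8 (-4.40) changed most, and Ndufs1 (0.37) and Ndufc1 (-0.15) least. A further list held factors of complexes II to V, mostly for assembly and copper delivery. Of its 27 accessions 25 were detected and their median change was -1.07, with 13 lower by 1 or more (background 40.8%) and none higher by 1 or more. Atpif1, the inhibitor of the ATP synthase, was the lowest (-3.15), followed by Surf1, a factor for complex IV (-1.89). Lrpprc, which stabilises mitochondrial mRNAs (0.56), and Fam36a, now known as Cox20 (0.37), were the highest. The listed factors were thus nearer to the median of all coding mRNAs than the members were, while their median A was 8.45.

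The 12 enzymes of the citric acid cycle had medians of 1.14 in the control, -0.57 with thapsigargin and -1.38 for the change. Of these enzymes 9 were lower by 1 or more (background 40.8%). Suclg1 (-2.96) and Idh3g (-2.69) changed most and Ogdh (-0.02) least. Complex II belongs to the cycle and to the respiratory chain. Its median change (-1.10) was closer to that of the cycle than to those of complexes I, III, IV and V. The medians of the cycle and of complex IV (-1.56) differed by less than the SD between probes (0.32). Complex II is only 4 genes, from -2.69 to -0.62. The medians of complexes II and IV were -1.08 and -1.25 with no background subtraction, and -0.32 and -0.29 after loess within each array. No such values are given here for the cycle. The cycle and complex II were also alike in brightness, with a median A of 9.61 and 10.00. Complexes I, III, IV and V were brighter, at 12.05, 12.30, 12.97 and 12.60. The part of brightness in this likeness was not tested.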

How the data were processed

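Polysomal (Cy3) and free plus monosome (Cy5) RNA of NIH3T3 cells was measured on 1 Agilent array per condition. Per the file headers, the deposited intensity values were extracted with Agilent Feature Extraction 10.7.1 and not normalized, next to processed intensity values after background subtraction, spatial detrending and dye normalization. Deposited flags of 0 or 1 mark outliers, saturation and spots well above background. The authors also deposited unnormalized log2 values of P over FM per accession, and all 43 members in it equalled the values computed here within 0.001.

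Here the local background was subtracted with limma 3.58.1 (R 4.3.3), with results under 0.5 set to 0.5, as the study's methods name, and nothing was normalized. Outlier spots (295, or 0.680% of non-control spots) were left out, none of them of a member. No spot was saturated. Spots were averaged per probe and probes per accession. Groups came from the labels. The script was tested on simulated data with known shifts. Probe positions (mm9) were copied from the array files, and exons were not analysed here. Promoters came from RefSeq (GRCm38.p6), and protein lengths were not analysed here.

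The members and gene lists were chosen with earlier results of these data known. Genes named were all of complex II, the core subunits, isoform families, the extremes of each complex and list, members with discordant probes, those that rose and those not detected. In addition small subunits were named for completeness. Other background corrections, signals, normalizations, filters and units were tried as alternatives. The value of a single list gene that this rule covers is not reported here.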

Additional observations from a re-analysis of the deposited data

How the results depend on the processing

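No paired analysis was possible because each condition is 1 array. With 1 array per condition the order of the complexes and of the members has no replicate check, and dim members (A under 7: Atp5s, Atp5sl, Cox6a2, Cox6b2 and Cox7a1) rest on signals near background. The normexp and unsubtracted corrections, median spot signals, filters on A, the units and the deposited table kept the members' median change, their control median and the count lower by 1 or more within the probe spread or 1.5 times. The normexp and unsubtracted corrections covered 48 members, since those not detected above then passed the filter on A.

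With the processed signals of Feature Extraction the members' median change was -1.0, the change in A -0.25, the count lower by 1 or more 22 (27.2% of all coding mRNAs) and the widest difference between complexes 0.78. After loess within each array the median change was -0.45, the control median 0.25, the count 16 (20.7% of all) and the difference 0.47. Both were fitted across brightness or dye, and 72.7% of members lay below the median change of all coding mRNAs under each, against 95.5% without them. Centring gave a median change of -1.39 and a control median of 0.61, with 28 members lower by 1 or more against 21.9% of all. The median of all coding mRNAs was -0.71 as reported, 0.33 with normexp and 1.84 with spike-in scaling. Without the tissue isoforms, Atp5s and Atp5sl, a choice made after seeing the data, the median change was -2.18.

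Spike-in scaling, which adds 2.55 to every change, turned the median change to 0.53 and the count to 2 (0.319% of all). The complex medians were then 1.45 (II), 0.20 (III), 0.99 (IV) and 0.24 (V). The sign turned in 30 members, to 1.93 (Sdha), 1.29 (Sdhc), 1.61 (Sdhd), 0.37 (Uqcr), 0.90 (Uqcrc2), 0.022 (Uqcrfs1), 1.08 (Uqcrh), 0.53 (Uqcrq), 1.30 (Cycs), 0.38 (Cox5a), 1.46 (Cox6a2), 1.39 (Cox6b1), 0.84 (Cox6b2), 1.15 (Cox6c), 0.015 (Cox7a2), 1.13 (Cox7a2l), 1.26 (Cox7b), 1.31 (Cox7c), 0.077 (Cox8a), 0.64 (Atp5a1), 0.029 (Atp5b), 1.2 (Atp5e), 0.24 (Atp5g1), 0.0012 (Atp5g3), 0.62 (Atp5j), 0.86 (Atp5j2), 1.54 (Atp5k), 0.54 (Atp5l), 1.60 (Atp5s) and 1.77 (Atp5sl). The 2.55 is the difference of the arrays' median spike-in ratios and is larger in size than the median change of the probes (-2.44), and Atp5g3, Cox7a2, Uqcrfs1, Atp5b and Cox8a turned within that margin. With the processed signals 7 members turned, to 0.40 (Sdhd), 0.24 (Atp5e), 0.33 (Atp5k), 0.0064 (Cox6b1), 0.10 (Cox6c), 0.24 (Cox7b) and 0.11 (Cox7c). After loess 10 did, to 0.41 (Sdhd), 0.33 (Atp5e), 0.12 (Atp5j2), 0.56 (Atp5k), 0.034 (Cox6b1), 0.39 (Cox6c), 0.44 (Cox7b), 0.15 (Cox7c), 0.34 (Uqcrh) and 0.14 (Uqcrq). With normexp 3 turned, to 0.15 (Cox6a2), 0.14 (Atp5s) and 0.56 (Sdha), and with centring Sdha turned to 0.0083. With the processed signals the median FM change was 0.27, against 1.22 as reported. The cause of these turns was not tested, other than the constant added by spike-in scaling.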

Other observations

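The carriers and pores that exchange ATP, ADP and phosphate with the mitochondrion and the regulators of mitochondrial gene expression, both listed by name, were not described above. Of 9 carriers and pores 6 were detected, and all 6 were lower in log2 P/FM by 1 or more (40.8% of all coding mRNAs were). Their medians were 0.95 in the control, -0.92 with thapsigargin and -2.02 for the change. The ADP/ATP carriers Slc25a5 (-2.83) and Slc25a4 (-2.40) changed most, and the outer membrane pores Vdac2 (-1.46) and Vdac1 (-1.68) least. The median A of these 6 was 12.48.

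The regulators had a median change of 0.01 over 15 accessions of 14 genes, with 4 lower by 1 or more (40.8% of all coding mRNAs were) and 2 higher (9.90% of all). The nuclear receptor Esrra (0.59 in the control and -1.59 with thapsigargin, change -2.18) and Nrf1 (0.43 and -1.02, change -1.45) were lowest. The coactivators of mitochondrial biogenesis Ppargc1a (-0.70 and 0.85, change 1.56) and Ppargc1b (-0.44 and 0.97, change 1.41) were highest. The median A of the regulators was 6.85, a band in which the median change of all coding mRNAs was -0.24, and the part of brightness in the distance between these regulators and the respiratory subunits was not tested.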
